A study of Mus musculus with 5 samples.

Results

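The 9 genes described here are targets of the transcription factor p53, genes of the mitochondrial route of apoptosis and genes of the death receptor route: Cdkn1a, Ccng1, Mdm2, Gdf15, Bax, Bbc3, Fas, Tnfrsf1a and Casp8. They were chosen by name from a table of 19221 genes, with earlier results of these data known. All 9 passed a floor of at least 1 RPKM in at least 1 library, as did 12783 genes in all. RPKM is the number of reads scaled by gene length and by the library's read total. Gdf15 passed that floor only through days 1, 3 and 10, Fas only through day 1 and Casp8 only through day 10.

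Male C57BL/6 mice, 9 weeks old, had a photothrombotic stroke made in the caudate putamen: light excites the circulating dye rose bengal, and the lit vessels clot. The dye was injected at 100 mg/kg into the peritoneum 5 min before light of 532 nm and 30 mW, which was delivered for 2 min through a fibre placed 3 mm below the dura. Lesioned tissue of the right side was punched, guided by magnetic resonance images, 4 hours, 1 day, 3 days and 10 days later. Tissue of 6 animals was pooled into 1 total RNA library for each time. The sham library was punched from the left side, where the laser was applied before the dye, so its donors carried a lesion in the other hemisphere. The sources used here do not give the number of animals in it or their times. With 1 library per group there is no replicate check: the values describe these 5 libraries, and no p-value can be given for a condition.

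p53 is a stress-activated transcription factor. It raises the cell cycle inhibitor p21 (Cdkn1a) and pro-death members of the BCL2 family such as Bax and Puma (Bbc3), and it raises Mdm2, the ubiquitin ligase that in turn removes p53. BAX opens the outer mitochondrial membrane, and PUMA frees it from its inhibitors. Death receptors at the cell surface, such as FAS and the tumour necrosis factor receptor TNFR1 (Tnfrsf1a), recruit adaptor proteins and caspase-8, which starts the other route into apoptosis. In the infarct and its border both routes have been studied as ways in which neurons die, and several of these genes also act in glia and invading leukocytes.

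The read totals recovered from the steps in the RPKM values ran from 42261786 to 48013851. The median log2 fold of all 12783 genes against sham was 0.28, -0.02, 0.12 and 0.07 in order of time (4 hours, day 1, day 3, day 10), where log2 fold means log2 of (RPKM + 1) over (sham RPKM + 1). Median-of-ratios scaling, which sets the typical gene level equal between libraries, lowered the values of the 4-hour library by a log2 of 0.37, of day 3 by 0.14 and of day 10 by 0.16, and raised those of day 1 by 0.11. Ratios, counting intervals and orders of levels below are those of RPKM as deposited, and the intervals do not cover the choice of scaling. After scaling the highest library was day 1 for Cdkn1a and Ccng1, day 10 for Bbc3 and sham for Mdm2. Genes with a log2 fold of 1 or above are called higher, and those of -1 or below lower, which is a 2-fold difference with the pseudocount. The medium spiny neuron gene Ppp1r1b stood at 1019 RPKM and Drd2 at 73.8 RPKM in the sham library, both being defining genes of the labelled tissue. In pooled tissue, fewer cells of a type and less RNA per cell cannot be told apart.

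Of the 9 genes, 1 was higher than sham at 4 hours (Cdkn1a), 3 at day 1 (Cdkn1a, Gdf15 and Tnfrsf1a), 3 at day 3 (Cdkn1a, Bax and Tnfrsf1a) and 2 at day 10 (Gdf15 and Tnfrsf1a). None was lower by this limit at any of the 4 times. With median-of-ratios or TMM scaling the numbers higher were 0, 3, 2 and 1 in order of time, as Cdkn1a at 4 hours and day 3 and Tnfrsf1a at day 10 then missed the limit. Among all 12783 genes, 2.2% were higher and 1.09% lower at 4 hours, 3.33% higher and 1.35% lower at day 1, 9.04% higher and 0.618% lower at day 3, and 4.2% higher and 0.172% lower at day 10. The median log2 fold of the 9 genes was 0.11, 0.56, 0.50 and 0.44 in order of time. The 4 comparisons share the sham library, so they are not independent of each other.

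**Figure D1:**
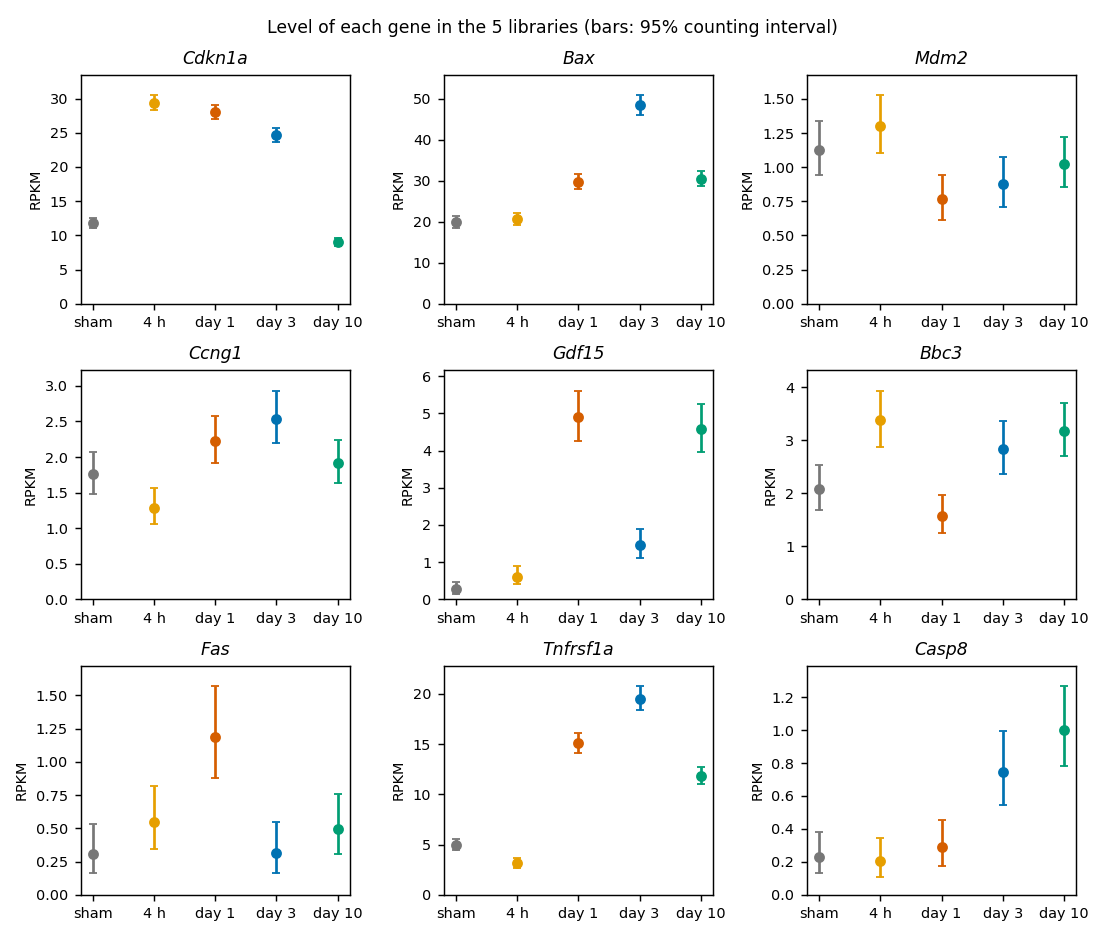
RPKM of each of the 9 genes (vertical axes, 1 panel per gene) in the sham, 4-hour, day 1, day 3 and day 10 libraries (horizontal axes, evenly spaced). Dots are single libraries and bars are exact 95% Poisson intervals of counting error. Cdkn1a is high from 4 hours to day 3 and Tnfrsf1a from day 1 to day 10, while Gdf15 has peaks at day 1 and day 10.

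Cdkn1a encodes p21, which binds and blocks cyclin-dependent kinases. Its level was 11.8 RPKM in sham, then 29.4 (4 hours), 28.1 (day 1), 24.6 (day 3) and 9.02 (day 10). The 4-hour, day 1 and day 3 libraries were high, and the day 10 library was below sham. The ratio to sham was 2.49 at 4 hours (95% counting interval 2.33 to 2.67), 2.38 at day 1 (2.22 to 2.55), 2.09 at day 3 (1.95 to 2.24) and 0.766 at day 10 (0.702 to 0.834). The intervals cover counting error only. The 4-hour and day 1 levels could not be told apart within it (ratio 0.955, 0.907 to 1.01). Scaling, however, turned the log2 fold of day 1 against 4 hours from -0.06 to 0.40, in favour of day 1. Among the consecutive times of Cdkn1a itself, the largest fall was from day 3 to day 10 (ratio 0.367, 0.340 to 0.395). On the log2 scale the folds were 1.25, 1.18, 1.00 and -0.35 in order of time. Scaling by the median of ratios gave 0.89, 1.29, 0.87 and -0.49, so the 4-hour and day 3 values then stood just under the limit. The gene lies at chr17:29090976-29100727 on the plus strand (GRCm38), and 273 bases of its exons are shared with AC167363.2 on the opposite strand. The sources used here do not say if counting was by strand, and reads of such a pair cannot then be told apart.

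Ccng1 encodes cyclin G1, a p53 target that acts with the phosphatase PP2A on MDM2. The gene lies at chr11:40748552-40755311 on the minus strand. Its level was 1.76 RPKM in sham, then 1.29 (4 hours), 2.23 (day 1), 2.54 (day 3) and 1.92 (day 10). The 4-hour library was lowest (ratio to sham 0.734, 0.564 to 0.954) and day 3 highest (1.45, 1.16 to 1.81). From day 3 down to sham, each neighbour in the order of levels lay within counting error of the next. The log2 folds, -0.27, 0.23, 0.36 and 0.08 in order of time, all stayed far below the limit, and the day 10 value changed sign with scaling (-0.02).

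Mdm2, the feedback inhibitor, is a widely used readout of p53 activity (chr10:117688875-117710758, minus strand). It stood at 1.13 RPKM in sham, then 1.301 (4 hours), 0.764 (day 1), 0.875 (day 3) and 1.02 (day 10). The order ran from 4 hours through sham, day 10 and day 3 to day 1, and each neighbour pair in it had a ratio whose interval held 1. Day 1 was below sham (ratio 0.679, 0.513 to 0.896) while Cdkn1a in that same library was at 2.38 times its sham level. The log2 folds of Mdm2 were 0.11, -0.27, -0.18 and -0.07 in order of time, and the 4-hour value was -0.08 after scaling.

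Because p53 binds a pair of 10-base half-sites, the promoter windows of the 9 genes (250 bases before to 50 after each start, from RefSeq on GRCm38.p6) were searched on both strands for exact half-sites, to show where the genes named as its targets hold one. The 9 genes had 13 windows. Exact half-sites lay in windows of 4 of the 9 genes and are in capitals below, each within 60 bases read 5′ to 3′ on the gene's strand. Cdkn1a is shown from chr17:29090897-29090956 (plus strand), Ccng1 from chr11:40755442-40755501 (minus), Mdm2 from chr10:117710910-117710969 (minus) and Bax from chr7:45467065-45467124 (minus).
Cdkn1a: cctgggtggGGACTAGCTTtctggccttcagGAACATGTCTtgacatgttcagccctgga
Ccng1: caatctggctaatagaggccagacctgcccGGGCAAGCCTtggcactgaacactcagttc
Mdm2: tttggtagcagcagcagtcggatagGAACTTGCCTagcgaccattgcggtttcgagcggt
Bax: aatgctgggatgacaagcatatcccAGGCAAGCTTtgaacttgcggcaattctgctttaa
In Cdkn1a a second half-site adjoins the exact one with 1 letter off, giving the pair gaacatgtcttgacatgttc. The pair starts at base -51 from the upstream of the gene's 2 RefSeq starts, and the window of the downstream start held no match. Ccng1 holds such a pair too, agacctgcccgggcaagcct at -195. An exact half-site occurred in 8.36% of all 32851 mouse windows of this length, and an adjoining pair with at most 1 letter off in 29 of them (0.0883%). These shares count windows and not genes. Each of the 4 genes had its half-sites in only 1 window, out of 13 for the 9 genes. The half-sites in Mdm2 and Bax are not in such a pair. The levels of the 2 genes with a pair differed: Cdkn1a was at 2.49 times sham at 4 hours and Ccng1 at 0.734 times. A match is a run of letters and no evidence of binding, and sites outside the windows were not searched.

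Gdf15 encodes growth differentiation factor 15, a secreted stress hormone that p53 and the integrated stress response can both induce (chr8:70629393-70632456, minus strand). Its level was 0.264 RPKM in sham, then 0.611 (4 hours), 4.90 (day 1), 1.47 (day 3) and 4.58 (day 10). These values rest on 22, 52, 420, 115 and 407 reads. The gene had 2 peaks of like height, with a dip between them at day 3. The ratio to sham was 2.31 at 4 hours (1.10 to 5.18), 18.5 at day 1 (10.1 to 37.7), 5.56 at day 3 (2.89 to 11.7) and 17.3 at day 10 (9.47 to 35.2). Day 10 and day 1 could not be told apart (ratio 0.935, 0.767 to 1.14). The dip was beyond counting error on both sides, with a ratio of 0.300 from day 1 to day 3 (0.220 to 0.404) and of 3.12 from day 3 to day 10 (2.31 to 4.25). The log2 folds were 0.35, 2.22, 0.97 and 2.14 in order of time, and both peaks stayed past the limit after scaling (2.31 and 2.01). The pseudocount understates the differences of a gene this low. The authors' deposited table gives log2 folds of 1.17, 4.15, 2.42 and 4.05, and GFOLD values, which are shrunk for few reads, of 0.37, 3.50, 1.71 and 3.40.

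Bax, the pore-forming effector, was the most abundant of the 9 genes per length in sham (chr7:45461697-45466898, minus strand). It stood at 19.9 RPKM in sham, then 20.7 (4 hours), 29.8 (day 1), 48.3 (day 3) and 30.4 (day 10). The level peaked at day 3, where the ratio to sham was 2.43 (2.23 to 2.66). The flanking values, 1.498 at day 1 (1.36 to 1.65) and 1.53 at day 10 (1.39 to 1.68), could not be told apart. At 4 hours the ratio was 1.04 (0.937 to 1.15). The log2 folds were 0.05, 0.56, 1.24 and 0.59 in order of time, and the 4-hour value was -0.30 after scaling. A stretch of 192 exon bases is shared with Gm45808 on the same strand, and the sources used here do not say how reads there were assigned.

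Bbc3 encodes PUMA, a BH3-only protein that p53 induces (chr7:16308393-16318205, plus strand). Its level was 2.08 RPKM in sham, then 3.37 (4 hours), 1.58 (day 1), 2.83 (day 3) and 3.17 (day 10). As deposited the gene had its highest value at 4 hours and its lowest at day 1, whereas Tnfrsf1a was lower at 4 hours than at day 1. The ratio to sham was 1.62 at 4 hours (1.26 to 2.11), 0.759 at day 1 (0.557 to 1.03), 1.36 at day 3 (1.04 to 1.79) and 1.53 at day 10 (1.18 to 1.98). The 4-hour, day 10 and day 3 levels followed each other within counting error, and the drop from 4 hours to day 1 did not (ratio 0.467, 0.352 to 0.616). The log2 folds of 0.51, -0.26, 0.32 and 0.44 were all within the limit, and became 0.23, -0.19, 0.21 and 0.32 after scaling. The mitochondrial pair thus differed at day 1, where Bax was above sham and Bbc3 was not.

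Fas encodes the receptor of FAS ligand (chr19:34290666-34327772, plus strand). Its level was 0.309 RPKM in sham, then 0.544 (4 hours), 1.19 (day 1), 0.315 (day 3) and 0.497 (day 10). Only the day 1 library stood apart from sham, with a ratio of 3.84 (2.03 to 7.82), and the ratio from day 1 to day 3 was 0.266 (0.129 to 0.506). The other times had intervals that held 1, on 24 to 45 reads, so a difference there was not detectable at this depth. The log2 fold at day 1 was 0.74 with the pseudocount, under the limit, while the authors' deposited table gives 1.90 and a GFOLD value of 1.20. The gene of its ligand, Fasl, was not analysed here.

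Tnfrsf1a encodes TNFR1, through which tumour necrosis factor signals both survival and death (chr6:125349362-125362484, plus strand). Its level was 4.97 RPKM in sham, then 3.14 (4 hours), 15.1 (day 1), 19.5 (day 3) and 11.9 (day 10). Like Cdkn1a it was above the limit at 3 consecutive times, but from day 1 and not from 4 hours, and every neighbour in its order of levels differed beyond counting error. The ratio to sham was 0.633 at 4 hours (0.523 to 0.763), 3.05 at day 1 (2.66 to 3.49), 3.94 at day 3 (3.45 to 4.50) and 2.39 at day 10 (2.08 to 2.75). The step from 4 hours to day 1 was 4.81-fold (4.11 to 5.67). The log2 folds were -0.53, 1.43, 1.78 and 1.11 in order of time, and 0.96 at day 10 after scaling, just under the limit.

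Casp8 encodes the initiator caspase that both receptors can recruit, and it was the lowest of the 9 genes per length in sham (chr1:58795374-58847503, plus strand). Its level was 0.231 RPKM in sham, then 0.203 (4 hours), 0.291 (day 1), 0.744 (day 3) and 1.00 (day 10). Sham, 4 hours and day 1 lay within counting error of each other, and days 3 and 10 were higher. The ratio to sham was 3.22 at day 3 (1.77 to 6.22) and 4.34 at day 10 (2.46 to 8.16), on 91 and 139 reads against 30. With the pseudocount the log2 folds were 0.50 and 0.70, under the limit, and the authors' deposited table gives 1.66 and 2.08. Casp8 was thus highest in the library in which Cdkn1a was lowest.

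**Figure D2:**
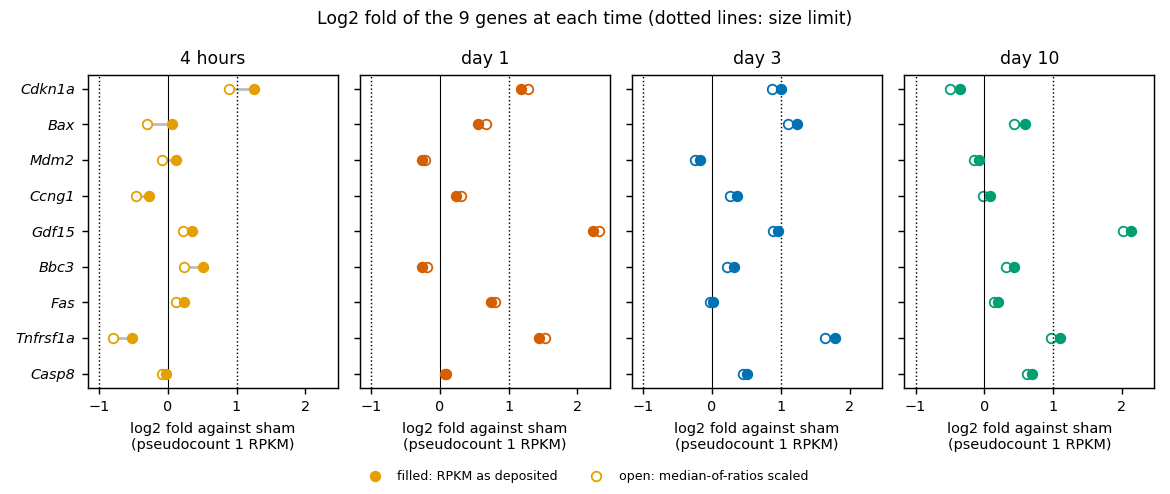
Log2 fold of the 9 genes against sham (horizontal axes, pseudocount of 1 RPKM) at 4 hours, day 1, day 3 and day 10 (panels), as deposited and after median-of-ratios scaling. Dotted lines mark the size limit at 1 and -1. As deposited only Cdkn1a passes it at 4 hours, and Gdf15 and Tnfrsf1a pass it at day 10. After scaling Cdkn1a at 4 hours (0.89) and Tnfrsf1a at day 10 (0.96) do not.

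The promoters of Bbc3 and Fas held letters of other stress-responsive factors and no exact p53 half-site. They are shown because both genes are named as p53 targets. Bbc3 has an NF-kB match at chr7:16309421-16309480 (plus strand), in the most upstream of its 3 windows. Fas has an AP-1 match (TGANTCA) at chr19:34290421-34290480 (plus). Both are in capitals.
Bbc3: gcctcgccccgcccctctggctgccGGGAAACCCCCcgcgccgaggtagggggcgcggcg
Fas: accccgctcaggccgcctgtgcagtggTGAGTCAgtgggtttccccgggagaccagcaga
The capitals in Bbc3 cover 2 overlapping matches. NF-kB matches occurred in 4.51% of all windows and AP-1 matches in 7.81%. In 7 of the 13 windows none of the 5 motifs searched was found, the others being TGATGNAA, the element of C/EBP and ATF factors (3.97% of all windows), and the TATA box TATAAA (13.6%). Among the other p53 targets listed for comparison, 7 of the 32 windows of 25 genes (21.9%) held an exact half-site and 0 held an adjoining pair.

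Between consecutive times the members moved in different directions. From 4 hours to day 1, Gdf15 and Tnfrsf1a were higher and 0 members were lower, where 2.7% of all genes were higher and 5.7% lower. From day 1 to day 3, Gdf15 was lower and 0 members were higher, against 0.939% and 7.46% of all genes. From day 3 to day 10, Gdf15 was higher and Cdkn1a lower, against 0.626% and 2.77%. Each of these comparisons shares a library with the next. The log2 folds that decided these calls were 1.87 and then -1.26 and 1.18 for Gdf15, 1.96 for Tnfrsf1a and -1.35 for Cdkn1a.

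The members were also compared by the root mean square difference of their 4 log2 folds, over 4 times that share the sham library. The closest pair was Ccng1 and Casp8 at 0.347, followed by Bbc3 and Casp8 at 0.354, and the farthest was Mdm2 and Gdf15 at 1.76. The pseudocount draws genes of low level together in this measure, so a small distance between them need not mean a like course. By ratio Casp8 was at 4.34 times sham at day 10 (2.46 to 8.16) and Ccng1 at 1.09 times (0.867 to 1.38). Cdkn1a and Mdm2, which p53 raises together in its textbook role, were 1.10 apart. The genes nearest to Cdkn1a, out of 1979 others past the limit at some time, were Cck, a neuropeptide gene (0.186), Taf5, a subunit of a general transcription factor (0.188), and Gm45507 (0.192). Nearest to Bax were Gm6311 (0.0511), Slc39a1, a zinc transporter (0.0768), and Gm45700 (0.0772). Nearest to Gdf15 were Mmp3, a matrix metalloproteinase (0.35), Rnu1b2 (0.52) and Rab20 (0.533). Nearest to Tnfrsf1a were Ms4a6d, expressed by macrophages (0.183), Glipr1 (0.201) and Lilrb4a, a receptor of myeloid cells (0.216). The genes nearest to Tnfrsf1a are thus in part known from myeloid cells, and those nearest to Bax include pseudogenes. For Casp8 they were Ptafr (0.18), Inmt (0.209) and Rrbp1 (0.211), and for Fas Gm2464 (0.172), Gm36551 (0.224) and Gm39469 (0.225). Mdm2 was nearest to Gpr6 (0.377), Mir7226 (0.387) and Drd2 (0.398), Ccng1 to Trappc6a (0.338), Fam96b (0.368) and Cavin3 (0.375), and Bbc3 to Gm26527 (0.279), Olig2 (0.288) and Gm44732 (0.32). The candidates all passed the limit at some time, so members with small folds, such as Mdm2, had no gene as near as Bax had.

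The other genes of the pathway were read from 10 lists chosen for their roles, of which 97 genes passed the floor. In these lists together 6, 9, 30 and 11 genes were higher in order of time (6.19%, 9.28%, 30.9% and 11.3%, where 2.2%, 3.33%, 9.04% and 4.2% of all genes were), and 1 was lower, at 4 hours. Of the 97, 13 reached the floor at day 3 alone, so the day 3 count is in part set by the floor. Of 24 further p53 targets analysed, 2 were higher at 4 hours, Btg2, an antiproliferative gene (log2 fold 1.36), and Ei24 (1.01). At each later time 1 was higher: Rprm, a mediator of G2 arrest, at day 1 (1.10), and Tap1, the antigen peptide transporter, at days 3 (1.42) and 10 (1.48). These counts of 1 in 24 (4.17%) are near or below the shares of all genes at those times. Tap1 was also the 1 gene that was lower, at 4 hours (-1.002). The list's medians were 0.51, 0.05, 0.08 and 0.12 in order of time, and 0.19 at 4 hours after scaling, when Ei24 was at 0.66. Of p53 and its regulators, with 8 analysed, only Trp53 itself passed the limit. It stood at 3.59 RPKM in sham, then 4.33 (4 hours), 5.52 (day 1), 8.62 (day 3) and 3.97 (day 10), and its day 3 log2 fold of 1.07 was 0.94 after scaling.

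Of 15 BCL2 family genes, 1 was higher at 4 hours (Bnip3, 1.07, and 0.71 after scaling), and 3, 5 and 3 at the later times. The shares were 6.67%, 20%, 33.3% and 20%, against 2.2%, 3.33%, 9.04% and 4.2% of all genes. After scaling the numbers were 0, 4, 5 and 3, as Bnip3 then passed at day 1 (1.05). As deposited, the pro-survival genes Bcl2a1a, Bcl2a1b and Bcl2a1d made up the calls at days 1 and 10. Bcl2a1b had log2 folds of 1.75, 2.88 and 2.75 from day 1 to day 10. These paralogs are nearly identical, so how reads were split between them is uncertain. Bak1, the effector related to Bax, stood at 5.14 RPKM in sham, then 5.69 (4 hours), 6.94 (day 1), 19.6 (day 3) and 8.86 (day 10). It passed the limit at day 3 (log2 fold 1.74), the time at which Bax was highest too. Bik, a BH3-only gene listed at 0 in sham, was at 1.33 RPKM at day 3, the only library in which it reached the floor.

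Of 5 further genes of the TNF receptor family and its ligands, the numbers higher in order of time were 0, 2, 3 and 2. The receptor gene Tnfrsf21 passed the limit at no time (log2 folds 0.73, 0.005, 0.13 and 0.58). Tnfrsf12a, the receptor of TWEAK, stood at 10.5 RPKM in sham, then 13.4 (4 hours), 77.1 (day 1), 31.8 (day 3) and 6.01 (day 10), a day 1 log2 fold of 2.76. Tnf, the ligand of TNFR1, passed at day 1 (1.24, from 0.272 to 2.00 RPKM). Tnfrsf1b, the second TNF receptor, passed at days 3 (2.44) and 10 (1.93), and so did Tnfsf12, which encodes TWEAK (1.71 and 1.13, the latter 0.99 after scaling). Of 9 adaptors and inhibitors only Tradd, the adaptor of TNFR1, passed, at days 3 (1.22) and 10 (1.05, and 0.92 after scaling), and Fadd, the adaptor of FAS and caspase-8, had 0.95 at day 3. Of 6 necroptosis and pyroptosis genes listed, 4 reached the floor, and 3 of these passed at both day 3 and day 10: Zbp1, a nucleic acid sensor (1.96 and 1.62), Gsdmd, the pyroptotic pore (1.78 and 1.84), and Ninj1, which ruptures the membrane (1.69 and 1.35). Ripk3, the necroptosis kinase, reached the floor only at day 3, where it had 1.05, and 0.97 after scaling.

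**Figure D3:**
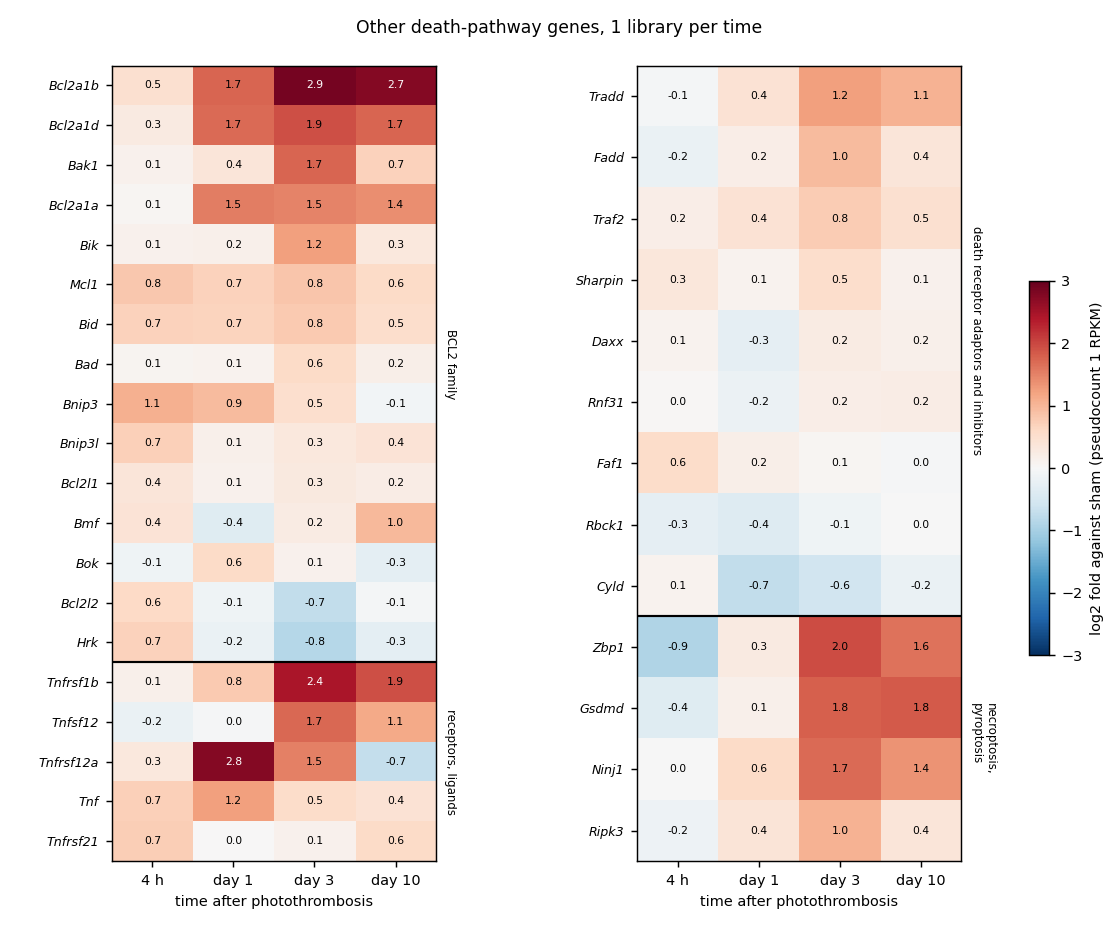
Heat map of the log2 fold against sham (pseudocount of 1 RPKM, printed in each cell and coloured from blue for lower to red for higher) of other death-pathway genes (rows, grouped by list) at 4 times (columns), with 1 library per time. Tnfrsf12a is deepest red at day 1 (2.76) and Bcl2a1b at day 3 (2.88).

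The integrated stress response can induce Gdf15. The 8 genes listed for that response, not each an inducer of Gdf15, summed to 60.9 RPKM in sham and to 111, 150, 105 and 71.4 RPKM in order of time. Atf3, a stress transcription factor, stood at 0.961 RPKM in sham, then 5.48 (4 hours), 16.4 (day 1), 9.49 (day 3) and 3.62 (day 10). Of these genes 3 were higher at 4 hours (1 after scaling), 3 at day 1 (4 after scaling, with Ddit3 at 1.06), 2 at day 3 and 1 at day 10. The shares were 37.5%, 37.5%, 25% and 12.5%, against 2.2%, 3.33%, 9.04% and 4.2% of all genes. At day 10 Gdf15 was again near its day 1 level while the list's median was 0.24 and Atf3 was at a log2 fold of 1.24. Among the 4 other cyclin-dependent kinase inhibitors, Cdkn2c passed, at day 3 (0.572 RPKM in sham and 5.73 RPKM at day 3). Of 17 cell cycle genes listed 14 reached the floor, but 10 of them only at day 3, so their count of 12 higher at day 3 is largely set by the floor. Mcm5, a replication gene at or above the floor in every library, stood at 1.31 RPKM in sham and 7.90 at day 3. Cdc20, which acts in mitosis, is among the 10 that reached the floor only at day 3, and stood at 0.66 and 10.8. Cdkn1a, whose product slows the cell cycle, was at 2.09 times sham in that same library.

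**Figure D4:**
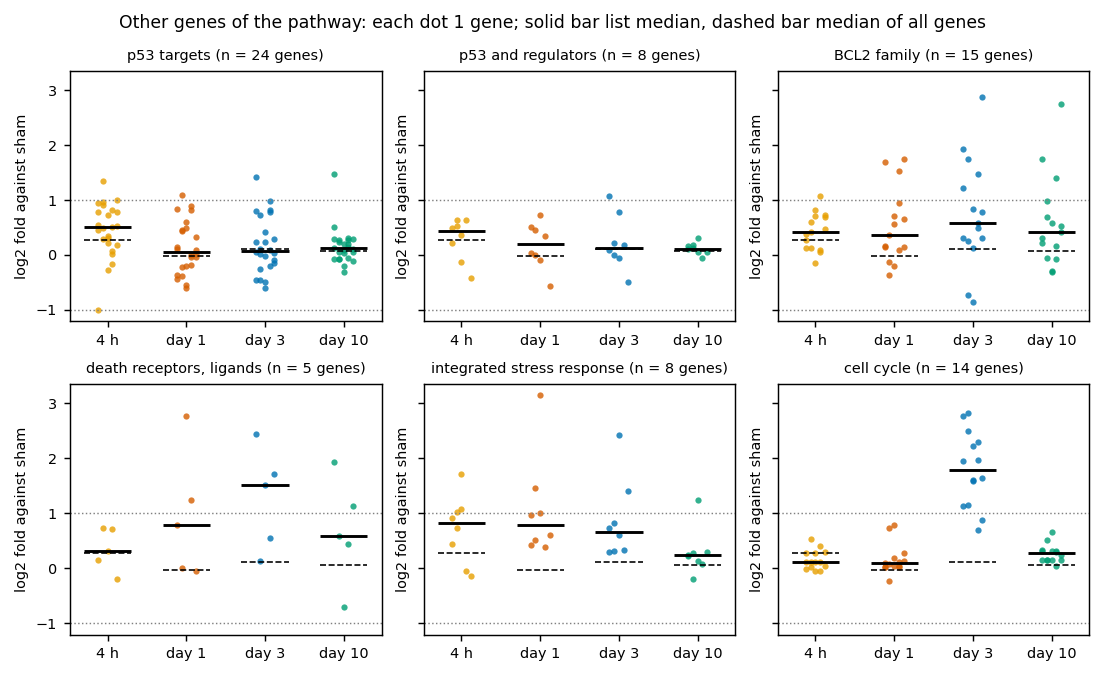
Log2 fold against sham (vertical axes) of the genes of 6 pathway lists (panels) at 4 times (horizontal axes). Dots are genes, solid bars list medians, dashed bars the median of all 12783 genes and dotted lines the size limit. The median of the p53 target list is at most 0.51. The day 3 dots of the cell cycle list stand high, but 10 of its 14 genes passed the floor only in that library.

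Cell type markers also differed between the libraries, and their part in the results was not tested. At day 1, 6 of 10 medium spiny neuron genes were lower than sham and 3 of 3 neutrophil genes were higher, S100a9 at 93.4 RPKM against 5.50 among them. The summed level of the medium spiny neuron genes was 1838 RPKM in sham, then 2352, 916, 1408 and 1571 in order of time. That of the neutrophil genes was 11.2 RPKM in sham, then 6.51, 153, 8.60 and 9.81. The neutrophil sum was high in the day 1 library alone. Gdf15 was at 18.5 times sham at day 1 and 17.3 times at day 10. Cxcr2 was at 0.177 RPKM at day 1, and Ly6g, Mpo and Elane were not analysed here. Resident microglia genes were higher in 5 of 8 at day 3 and 6 of 8 at day 10, with sums of 73.4 RPKM in sham, then 89.0 (4 hours), 55.4 (day 1), 354 (day 3) and 313 (day 10). Monocyte and macrophage genes were higher in 2 of 7 at day 1, 5 of 7 at day 3 and 4 of 7 at day 10, with sums of 33.9, 19.8, 62.4, 347 and 360 RPKM, and Ccr2 was at most 0.0709 RPKM in every library. Tnfrsf1a, Bax and Casp8 were all above sham at days 3 and 10. At day 1, with Tnfrsf1a at 3.05 times sham, the microglial sum was below sham and the macrophage and neutrophil sums were above it. The astrocyte sum was 165 RPKM in sham, then 88.4, 314, 560 and 302 in order of time, the same order of levels as Tnfrsf1a. Without Gfap that sum was 63.7 RPKM in sham, then 62.1, 42.0, 50.8 and 68.1, which is another order. The 4-hour library, in which Cdkn1a was highest as deposited, also differed in its markers. Choroid plexus and ependymal genes were higher in 3 of 5 and summed to 743 RPKM against 82.3 in sham, with Ttr at 729 against 77.4. Oligodendrocyte genes were higher in 3 of 6 and summed to 1434 RPKM against 845. Of 6 astrocyte genes only Gfap was lower, at 26.3 against 102 RPKM, and the other 5 summed to 62.1 against 63.7.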

How the data were processed

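The authors deposited RPKM values, 1 for every gene in each library, per the file headers, and for each pair of libraries a log2 fold, a GFOLD value at the setting 0.01 (a log2 fold shrunk for genes with few reads) and p-values. The deposited p-value columns were not used, because their test is not stated. Per the submitters' processing notes the tools were Trimmomatic 0.36, HISAT2 2.1.0 and StringTie 1.3.4d with GRCm38, with no roles given. The sources used here name neither the GFOLD version nor the annotation. Per the labels, RNA was extracted with Trizol and made into total RNA libraries.

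Genes that reached 1 RPKM in 1 library or more entered, as log2((RPKM + 1)/(reference RPKM + 1)), called by size at 1 or -1. This scale understates differences of low genes. RPKM times exon length in GENCODE mouse release 21 (19179 gene IDs matched) gave whole reads, within 0.02, for 90.4% to 90.5% of values below 5000 reads. For Cdkn1a and Fas the annotated lengths of 3553 and 2062 bases gave no whole reads, and the nearest lengths that did, 4446 and 1801, were used; this was chosen after seeing the data. Even read numbers made up 54.6% to 56.5% of those below 20, as where both mates are counted, so intervals use reads divided by 2. Intervals of ratios are exact conditional binomial and of levels exact Poisson, both at 95%. They cover counting error only, since copies made by PCR are not independent molecules.

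The calculation was tested on simulated data. Alternatives were median-of-ratios and TMM scaling (30% of M and 5% of A trimmed, unweighted), removal of predicted, mitochondrial and small RNA genes, pseudocounts of 0.1 and 0.5, no floor or 5 RPKM, size limits of 1.5 and 2, the authors' log2 fold and GFOLD values and, added after seeing the data, the 4-hour library as reference. Python 3.11.15, numpy 2.4.6, pandas 2.3.3, scipy 1.17.1 and matplotlib 3.10.9 were used.

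The members, the 10 pathway lists and the 13 cell type lists were chosen with earlier results of these data known. The caspase and apoptosome list is counted among the lists together and is not reported here on its own. Named genes are the 9 members, up to 4 genes of largest absolute log2 fold per pathway list and others a result turns on, the 3 nearest genes to each member, and up to 2 per cell type list. Cxcr2, Ccr2, Ppp1r1b, Drd2, Fadd, Ei24, Mcm5 and Tnfrsf21 were named outside that rule, after their values were seen. Fasl, Ly6g, Mpo and Elane, which were not found by name and so had no values, were named outside it too.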

Additional observations from a re-analysis of the deposited data

How the results depend on the processing

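No paired analysis was possible because each group is 1 library. With 1 library per group no library could be left out. Under the other scalings, pseudocounts, gene removal and authors' values, 0 member folds against sham past the size limit changed direction. For all but the authors' values that outcome was fixed in advance, so it lends these folds no support. A pseudocount cannot turn a sign, and scaling or gene removal shifted a library by at most 0.37 on the log2 scale. The 4-hour library as reference was outside that check. Against it Cdkn1a had log2 folds of -0.06 at day 1 and -0.25 at day 3. Smaller folds changed sign. Median-of-ratios scaling turned 4 of the 36 member folds against sham (Bax and Mdm2 at 4 hours, Ccng1 at day 10, Fas at day 3). It also turned 6 of the 54 between stroke libraries. The sizes of those turned were at most 0.13 on the log2 scale as deposited and 0.40 scaled. Among the counts of members against sham 70 of 86 values under the alternatives stayed within 1.5 times the count reported, as did 12 of 18 between consecutive times, 50 of 80 for the lists together and 685 of 800 for single lists. A count of 0 that stayed 0 was scored as staying, and all counts of members lower than sham were reported as 0. Most of the shifts against sham were in the counts of members higher. Of 252 single log2 folds of the members, 224 moved by less than their counting interval. The cause of the shifts below was not tested.

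The members higher than sham at 4 hours numbered 1 and became 0 with median-of-ratios scaling, TMM scaling or a limit of 1.5 or 2, and 2 by the authors' log2 fold. At day 1 the 3 became 1 with a limit of 1.5 or 2. At day 3 the 3 became 5 with a pseudocount of 0.1 or the authors' log2 fold, 1 with a limit of 1.5 and 0 with 2. At day 10 the 2 became 1 with either scaling or a limit of 1.5 or 2, and with the 4-hour library as reference 1 member was lower in place of 0. Between consecutive times a pseudocount of 0.1 gave 1 lower at day 1 in place of 0, and at day 3 1 higher in place of 0 and 2 lower in place of 1. A limit of 1.5 gave 0 lower at day 3, and 0 higher and 0 lower at day 10.

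For the lists together, the 6 higher at 4 hours became 15 and 11 with pseudocounts of 0.1 and 0.5, 2 with either scaling, 3 without predicted genes, 1 and 0 with limits of 1.5 and 2, and 19 by the authors' log2 fold. The 1 lower became 3 and 2 with those pseudocounts, 2 without predicted genes, 0 with either limit, 5 by the authors' log2 fold and 2 by GFOLD. At day 1 the 9 higher became 17 with a pseudocount of 0.1, 5 and 2 with the limits and 20 by the authors' log2 fold, and the 0 lower became 1 and 2 with that pseudocount and that fold. At day 3 the 30 became 9 with a limit of 2, and the 0 lower became 1 with a pseudocount of 0.1, without predicted genes or by the authors' log2 fold. At day 10 the 11 became 21 with a pseudocount of 0.1, 5 and 1 with the limits, 24 by the authors' log2 fold and 17 by GFOLD. Without a floor the percentages of all genes in order of time were 1.46, 2.22, 6.01 and 2.79 higher and 0.723, 0.895, 0.411 and 0.114 lower. With a floor of 5 RPKM they were 3.58 higher at 4 hours and 5.26 higher at day 1. Depth limits Fas, Casp8 and Gdf15 most, with 22 to 30 reads in sham.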
